A study of Rattus norvegicus with 6 samples.

Results

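Fn1 (Entrez gene 25661) encodes fibronectin, and it was followed here as 1 of the 18420 genes of the deposited expression table. It was chosen for its level: it held the greatest number of reads of any gene in every library. Its share of the reads, its rank, its spread and its fold change are therefore described without a test.

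Fibronectin is a large glycoprotein that cells secrete as a dimer and assemble into fibrils at their surface. It is bound by integrins and syndecans on the cell side and by collagens, fibrillins and thrombospondins on the matrix side, and alternative splicing of its exons gives forms that differ in these contacts. In cartilage it is a minor matrix protein that accumulates in osteoarthritis, its proteolytic fragments provoke chondrocytes to make matrix-degrading enzymes, and chondrocytes that spread on plastic make much of it.

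The cells were primary articular chondrocytes of wild-type (WT) male Sprague-Dawley rats weighing 180 to 220 g, taken from knees and hips and used at the third passage in medium with fetal bovine serum. The TNF-α group (n = 3) received TNF-α, an inflammatory cytokine, at 10 ng/mL for 6 h. The TNF-α+NFL group (n = 3) received the same and then, for 24 h more, NFL, a cell-free supernatant of freeze–thawed Nanofat, which is the cell fraction released from rat abdominal fat by collagenase. Both groups had thus been treated with TNF-α, and the labels give them times of 6 h and 30 h, so an effect of NFL and an effect of time cannot be told apart. The study describes the replicates of a group as independent biological ones, and the labels do not say whether they came from separate rats or cultures. The untreated NC group was not analysed here. In such bulk RNA, fewer cells of a type and less RNA per cell cannot be told apart. Every direction follows the deposited labels. A supplementary table of the study can be read with these groups exchanged, which the deposited files do not settle, and every sign given here would then turn.

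Each library held between 19344893 and 19725135 estimated counts of single-end reads. TNF-α replicate 1 stood apart from its group. The variance between replicate pairs, over counting noise, was 9.13 and 13.9 for the pairs that include it, and 2.71 to 4.98 for the other 4 pairs, so no pair looked like 1 library deposited in duplicate. On the leading principal component of the log2 expression values (27.2% of the variance) it lay at -18.9 and TNF-α replicate 3 at the other end, at 20.6. The defining cartilage genes were low: the mean TPM, a level scaled to transcript length, was 8.47 for Col2a1 (type II collagen), 5.33 for Acan (aggrecan) and 4.54 for Sox9 (a cartilage transcription factor). Prg4 (lubricin, of the joint surface) and Col11a1 (a cartilage collagen) reached 1100.2 and 459.95 TPM. Col1a1 (type I collagen) stood at 1265 TPM and Thy1 (a surface protein of fibroblasts) at 2565 TPM. The summed TPM of the 8 markers of fibroblasts and dedifferentiated cells ran from 4780 to 5324 in the TNF-α group and from 5251 to 5443 in the TNF-α+NFL group. TNF-α replicate 1 was the highest TNF-α library for 7 of these 8 genes. The same held for 6 of the 9 chondrocyte markers and for 37.9% of all genes tested. The 3 endothelial markers in the table summed to at most 0.29 TPM, with Kdr at 0 in every library, and the 5 adipocyte markers to at most 3.43 TPM. Of the macrophage markers, Ptprc and Csf1r reached at most 0.16 and 1.12 TPM, both in TNF-α replicate 1, whereas Cd68 and Cd14 averaged 38.7 and 64.8 TPM. The part of these other cells in the values below was not tested.

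Fibronectin mRNA took up more than 3% of all reads in every library. The estimated count of Fn1 was 862185, 698037 and 671843 in TNF-α replicates 1, 2 and 3. In the TNF-α+NFL group it was 671408, 701230 and 689316. As a share of all estimated counts this was 4.46%, 3.55% and 3.41% in the TNF-α libraries and 3.44%, 3.59% and 3.51% in the TNF-α+NFL libraries. In other words, 1 in 22.4 reads came from Fn1 in TNF-α replicate 1, and between 1 in 27.9 and 1 in 29.4 in the other 5 libraries. The group means were 3.80% ± 0.570 (SD, n = 3) and 3.51% ± 0.0741 (SD, n = 3). TNF-α replicate 1 alone was high. The other 2 TNF-α libraries lay within or just below the range of the TNF-α+NFL libraries, so the groups overlapped. Counting error was far smaller than these differences, since the binomial standard error of each share was between 0.00408 and 0.00469 percentage points.

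The count of Fn1 exceeded that of the next gene by a wide margin. In the TNF-α libraries the next gene by count was Eef1a1 (translation elongation factor 1α), and the ratio of Fn1 to it was 6.06, 4.57 and 4.28. Averaged over the 6 libraries, Fn1 held 3.66% of the counts, Eef1a1 0.754%, and Thbs1 (thrombospondin 1, a matrix protein that binds fibronectin) 0.652%. Mmp3 (stromelysin 1, a protease that cuts fibronectin) held 0.636% and Actb (β-actin) 0.595%. Also among the leading 10 were Sparc (a collagen-binding matrix protein, 0.593%), Bgn (biglycan, a small proteoglycan, 0.556%), Lox (lysyl oxidase, which crosslinks collagen, 0.523%) and Ctgf (connective tissue growth factor, 0.518%). The 20 genes with the most counts together held between 12.6% and 13.7% of each library.

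A long transcript yields more reads per molecule, and on the length-scaled TPM the order was another. The TPM of Fn1 was 11411, 8632 and 8226 in the TNF-α libraries and 8623, 9111 and 8805 in the TNF-α+NFL libraries. The means were 9423 ± 1733 (SD, n = 3) and 8846 ± 247 (SD, n = 3). Its rank among all genes by TPM was 2, 7 and 7 in the TNF-α group and 5, 5 and 6 in the TNF-α+NFL group. Mgp (matrix Gla protein, an inhibitor of calcification) was above Fn1 in all 6 libraries, with a mean TPM of 13747. Ftl1 (ferritin light chain), Tmsb10 (thymosin β10, an actin-binding peptide) and Actb were above it in every library but TNF-α replicate 1, with mean TPM values of 10508, 10436 and 9398.5 beside the 9135 of Fn1. The mean TPM of Eef1a1 (8627), Mt2A (metallothionein 2A, 8575) and Mmp3 (8029) came next below Fn1. The TPM of Fn1 ran from 8226 to 11411, a range that held the means of Ftl1, Tmsb10, Actb, Eef1a1 and Mt2A, so these neighbours did not separate from Fn1 beyond its spread. Over the 5 libraries without TNF-α replicate 1 Fn1 ran from 8226 to 9111 only, and the means of Ftl1, Tmsb10 and Actb lay above that range. The mean TPM of Mgp lay above every TPM value of Fn1 and that of Mmp3 below, and both kept that order in all 6 libraries.

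**Figure D1:**
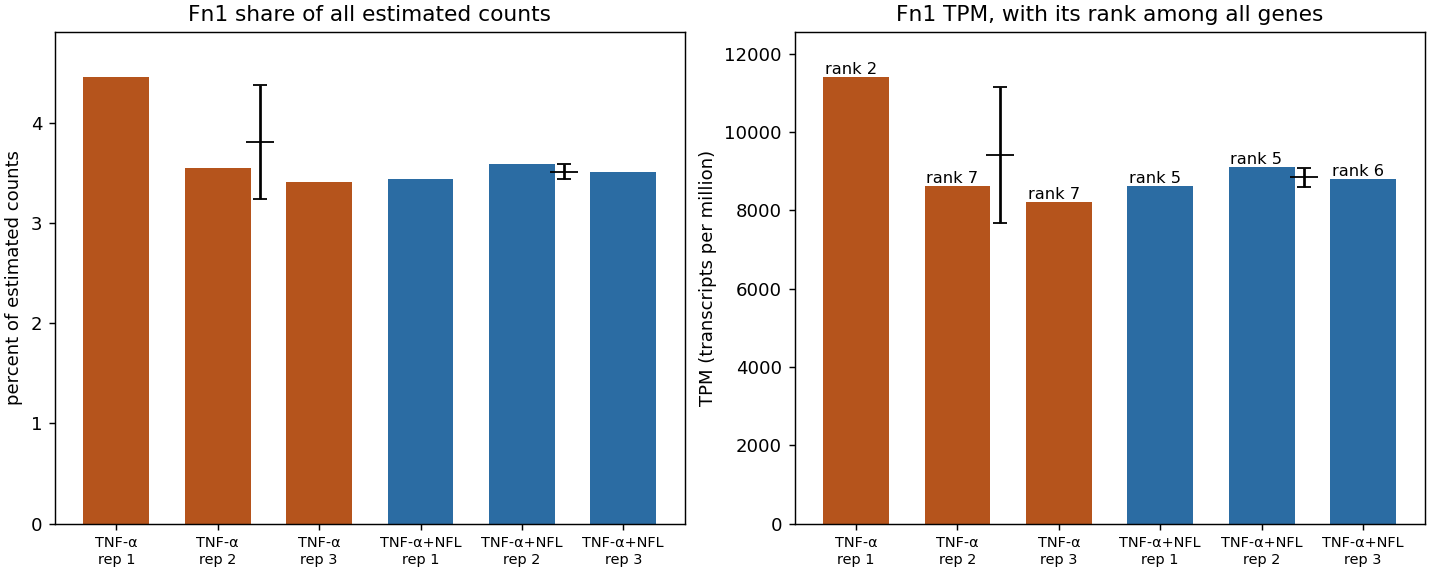
Fn1 in each of the 6 libraries. The left panel gives its share of all estimated counts in percent and the right panel its TPM, with its rank among all genes by TPM above each bar; orange bars are TNF-α libraries, blue bars TNF-α+NFL libraries, and the black marks show each group's mean ± SD (n = 3). TNF-α replicate 1 stands highest in both panels, at 4.46% and 11411 TPM, and the other 5 libraries lie between 3.41% and 3.59%.

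Fn1 differed between the groups by less than the spread within the TNF-α group. On CPM, counts brought to a common library size, here by the TMM method, which allows for library size but not for transcript length, Fn1 stood at 45131, 35328 and 33968 in the TNF-α libraries. In the TNF-α+NFL libraries it stood at 34285, 35912 and 35095. The means were 38143 ± 6090 (SD, n = 3) and 35097 ± 814 (SD, n = 3), and the groups overlapped. The log2 fold change (TNF-α+NFL minus TNF-α) was -0.12 with a standard error (SE) of 0.118, from the quasi-likelihood fit of edgeR over the 13250 genes tested. Without TNF-α replicate 1 the sign turned, and the log2 fold change was 0.019 with a standard error of 0.029. The mean share over the other 5 libraries was 3.50% ± 0.0753 (SD, n = 5), with a coefficient of variation (CV, the SD as a percent of the mean) of 2.15%, and the share in TNF-α replicate 1 was 1.27 times that mean.

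The spread of Fn1 was unusually wide in one group and ordinary in the other. The CV of its CPM was 15.97% in the TNF-α group and 2.32% in the TNF-α+NFL group, against a counting CV of 0.119%. Among the 1938 genes with a mean CPM of at least 100, the median CV was 3.97% in the TNF-α group and 2.14% in the TNF-α+NFL group. Fn1 exceeded 98.1% of these genes in the TNF-α group and 55.4% in the TNF-α+NFL group. Of the 20 genes with the most counts, Fn1 had the widest spread in the TNF-α group, where the other 19 ran from 1.13% to 10.4%. In the TNF-α+NFL group it ranked 9, and the others ran from 0.297% to 7.50%. Without TNF-α replicate 1 the CV of Fn1 in the TNF-α group was 2.78%, over 2 libraries. The model for all genes gave Fn1 a biological coefficient of variation of 10.2%, where genes of its abundance followed a trend at 5.63%. The quasi-likelihood step is a separate one with its own trend, from which Fn1 borrowed little. The weight of that trend, in degrees of freedom, was 1.12 for Fn1 and at most 9.06 over all genes. It was lower than that of Fn1 for 276 genes.

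**Figure D2:**
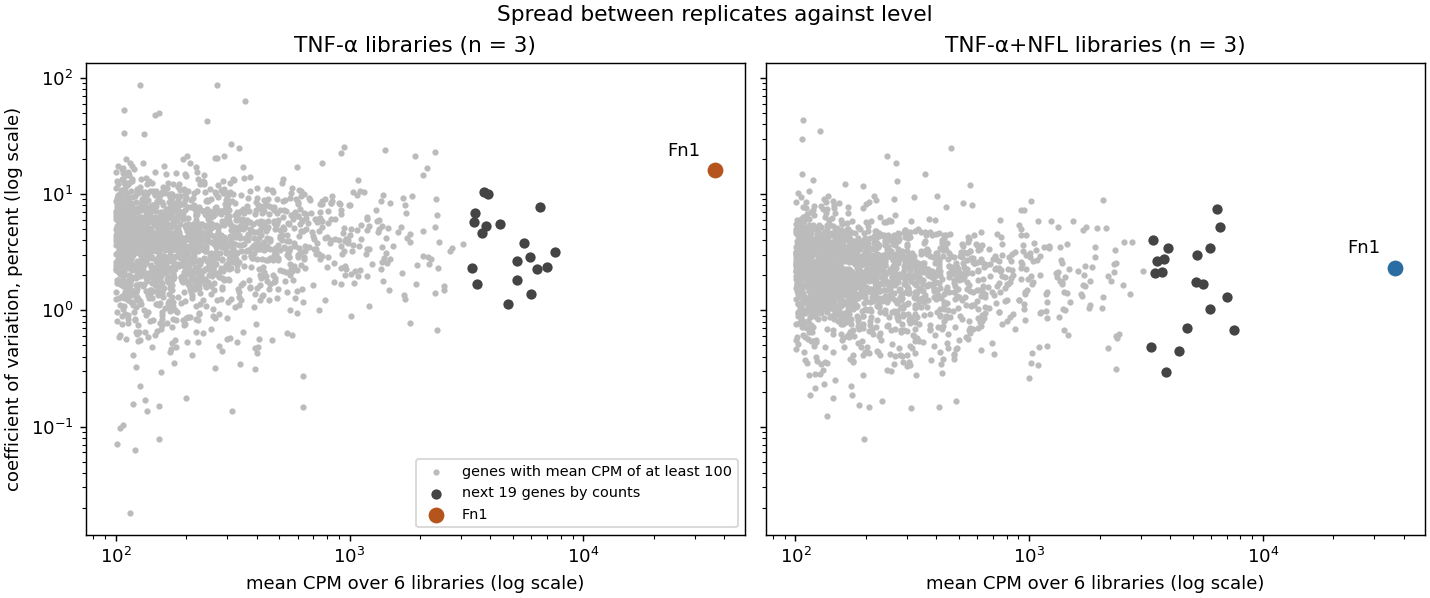
Coefficient of variation of CPM between the 3 replicates of each group (vertical, percent, log scale) against mean CPM over 6 libraries (horizontal, log scale), for genes with a mean CPM of at least 100 (grey), the next 19 genes by counts after Fn1 (dark) and Fn1 (coloured). In the TNF-α libraries Fn1 lies at 15.97%, above the other 19 abundant genes, and in the TNF-α+NFL libraries at 2.32%, among them.

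In TNF-α replicate 1, long transcripts as a whole were high, and that of Fn1 is long. The files imply an effective length, the number of start positions a read can take in a transcript, of 7920 bases for Fn1, longer than that of 95.1% of the genes with a mean CPM of at least 100. Between TNF-α replicate 1 and the mean of TNF-α replicates 2 and 3, the log2 difference in CPM rose with length across these genes. Its median was -0.16 in the 10% of genes with the shortest transcripts (median length 684 bases) and 0.20 in the 10% with the longest (7827 bases). Fn1 stood at 0.38, above 98.7% of the genes. It was also above most genes of its own length: the 147 genes within 1.25-fold of its length had a median of 0.17 and a range of -0.27 to 0.59, and 3 of them were above Fn1. The part of RNA quality or library preparation in this pattern was not tested.

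**Figure D3:**
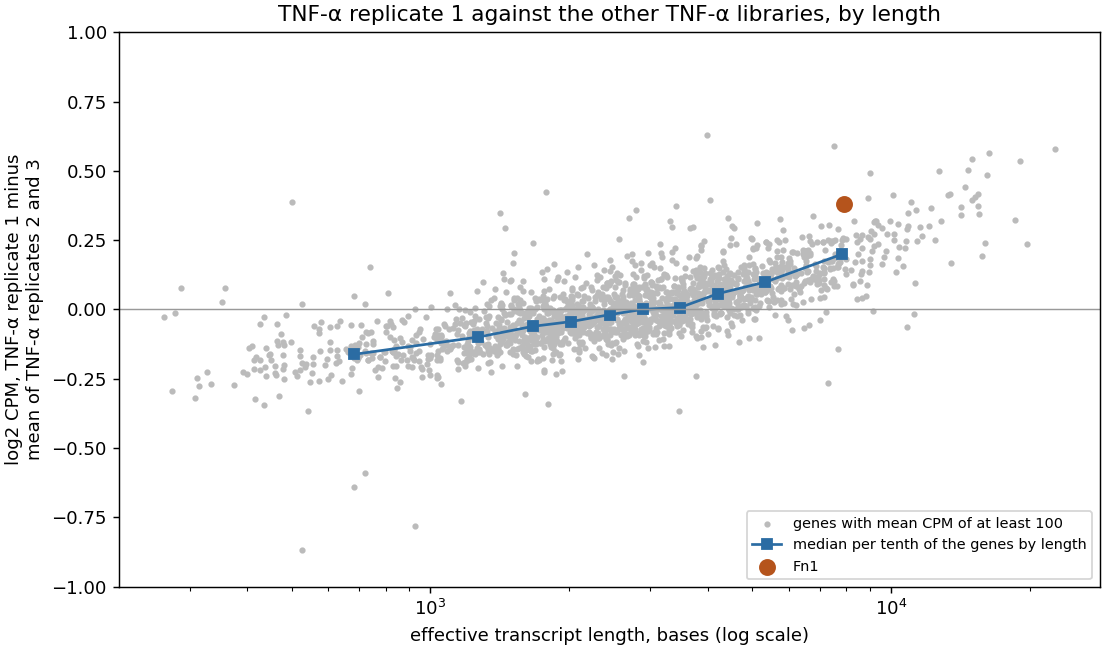
Log2 difference in CPM between TNF-α replicate 1 and the mean of TNF-α replicates 2 and 3 (vertical) against effective transcript length in bases (horizontal, log scale), for genes with a mean CPM of at least 100. Grey points are genes, 3 of which fall outside the vertical range; blue squares are medians of genes binned by length, 10% in each bin, which rise from -0.16 to 0.20; Fn1 (orange) lies at 0.38, above the median of the longest bin.

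An alternative chosen after the data had been seen removed each library's smooth trend with length from the log2 CPM of all genes. By construction it also removes any difference between the groups that follows length. Fn1 then stood at 42488, 36723 and 36579 in the TNF-α libraries and at 34040, 34555 and 34859 in the TNF-α+NFL libraries. TNF-α replicate 1 was still the highest, by 0.21 on the log2 scale over the mean of the other 2, and the CV fell to 8.73% and 1.201%. The groups no longer overlapped, also when TNF-α replicate 1 was left aside, and the log2 fold change was -0.16 with a standard error of 0.057. Separation of the groups was not particular to Fn1. Over all genes the step raised the calls of edgeR's test at an adjusted p under 0.05 from 54 higher and 27 lower to 142 and 89. Before the step the groups did not overlap for 16.8% of all genes, and the share after it is not given here. With all 6 libraries the mean of the TNF-α group was the higher one with and without this step, and without TNF-α replicate 1 the order of the groups turned with it.

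Fn1 is alternatively spliced, and the RefSeq table of the GRCr8 assembly lists 12 transcripts for it. The deposited values give 1 number for the gene, so its splice forms were not told apart. The implied effective length is a mean over the forms to which reads were assigned, and it was 7904, 7929 and 7927 bases in the TNF-α libraries and 7921, 7919 and 7922 bases in the TNF-α+NFL libraries. The lowest value was again that of TNF-α replicate 1. The range over the 6 libraries was 0.321% of the length, where the median range over 3589 genes with an FPKM of at least 20 was 0.129% and 39.5% of them had a wider one.

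Because Fn1 is so abundant, its excess in 1 library lowers the share of all other genes there. Between TNF-α replicate 1 and the mean of the other 2 TNF-α libraries, the genes with a greater share in replicate 1 gained 4.23 percentage points in all, of which Fn1 alone gained 0.979, or 23.2%. Lrp1 (a large endocytic receptor) was next with 0.0916 percentage points. When libraries were scaled to their totals, keeping Fn1 in the total set every other gene of TNF-α replicate 1 lower by 0.994% relative to the other libraries (a shift of -0.994%). For the deposited TPM the same shift was -0.275%. The TMM method, which trims genes with extreme ratios, gave a shift of 0.327%. Its scaling factors were 0.988, 1.006 and 1.003 for the TNF-α libraries and 1.004, 0.999 and 1.000 for the TNF-α+NFL libraries. With Fn1 left out of the table they were 0.999, 1.003 and 1.001, and 1.000, 0.999 and 0.997. The factor of TNF-α replicate 1 was the one that moved most.

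With TMM or the size factors of DESeq2, Fn1 hardly touched the comparison of the other genes. With plain totals it changed more, as the lower genes went from 19 to 25 when Fn1 left the total. With Fn1 in the table, 54 genes were higher and 27 lower in the TNF-α+NFL group at an adjusted p under 0.05 (quasi-likelihood test of edgeR, Benjamini-Hochberg method), which is 0.408% and 0.204% of the 13250 genes tested, and 0.611% in all. With Fn1 left out, 59 were higher and 25 lower, and 79 genes were shared by both lists. No log2 fold change moved by more than 0.0034, and the median log2 fold change of the other genes went from -0.0035 to -0.0014. Tpi1 (a glycolytic enzyme) and Fam162a (a mitochondrial protein) left the list. Ccdc80 and Col11a1 (matrix proteins), Rai14 and Coro1c (actin-binding proteins) and Gja5 (a gap junction protein) joined it. All 7 had adjusted p-values between 0.0440 and 0.0537 in both fits. Plain totals gave 57 higher and 19 lower genes, of which 72 were shared with the list from TMM, and totals without Fn1 gave 57 and 25, of which 79 were shared. With the size factors of DESeq2 the counts were 59 and 27 whether or not Fn1 was included.

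The genes whose levels ran most in parallel with Fn1 were found by the SD, over the 6 libraries, of the log2 ratio of their count to that of Fn1, a measure that no library scaling changes. Adamts5 (an aggrecanase) had the most constant ratio of 1936 genes compared, with an SD of 0.029. It was followed by Sec16a (a protein of endoplasmic reticulum export sites, 0.029), Tep1 (telomerase-associated protein 1, 0.038), Fasn (fatty acid synthase, 0.038) and Plec (plectin, a cytoskeletal linker, 0.039). The median gene had an SD of 0.168. The CPM of Adamts5 was 141, 112 and 107 in the TNF-α libraries and 104, 109 and 107 in the TNF-α+NFL libraries, high in TNF-α replicate 1 and level in the rest, as for Fn1. Sec16a, Tep1, Fasn and Plec had transcripts longer than those of at least 95.6% of the genes, and Adamts5 than those of 52.7%. The likeness rested on that library: without it none of the 5 was among the leading 5, and they ranked 193, 214, 59, 64 and 433. Tjp1, Syvn1, Gda, Smarcc2 and Fam120a then led, as genes chosen after their values were seen.

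**Figure D4:**
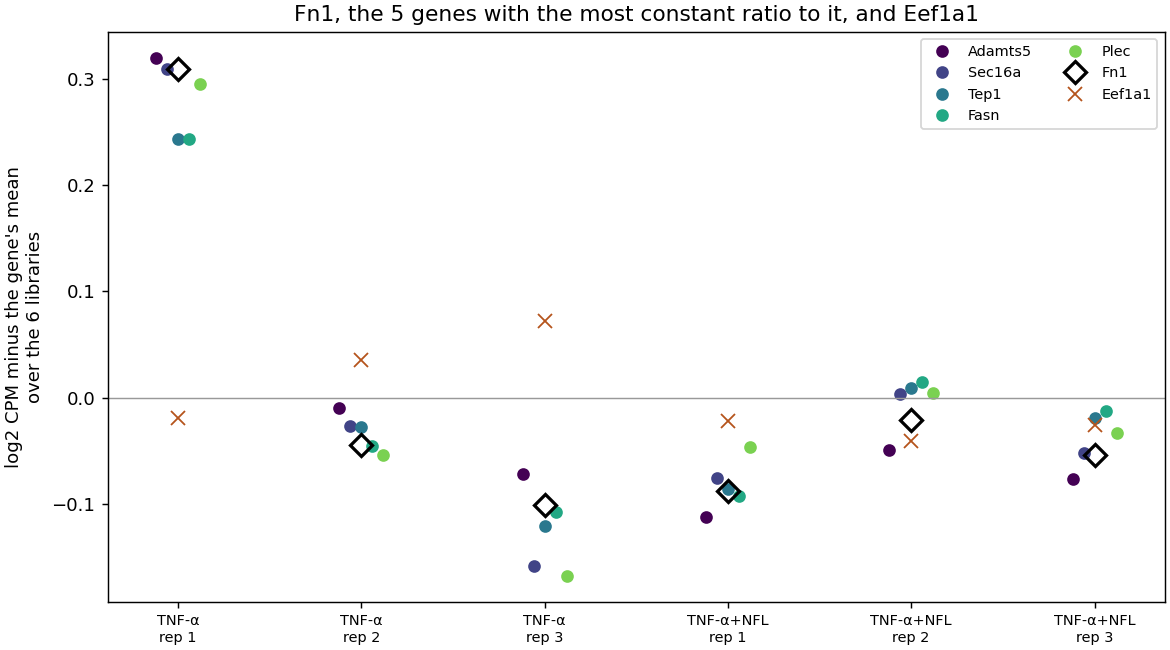
Log2 CPM of Fn1 (diamonds), of the 5 genes with the most constant ratio to Fn1 (circles) and of Eef1a1 (crosses) in each library, as the difference from each gene's own mean over the 6 libraries. Fn1 and the 5 genes are high together in TNF-α replicate 1, and Eef1a1, the next gene by mean count, is not.

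The partners of fibronectin were described through 7 lists of genes, from receptors to proteases, written from general knowledge but with earlier results of these data known, so that the share of their genes called is a description and no independent evidence. Of 73 symbols, 72 were found in the table and 66 passed the filter on low counts, and Elane was not analysed here. In the TNF-α+NFL group 4 were higher and 3 lower at an adjusted p under 0.05, which is 10.6% of the 66 beside 0.611% of all genes tested (0.408% higher and 0.204% lower). The higher ones were Tnc, Rock2, Itgb1 and Vcl, and the lower ones Plau, Mmp13 and Tlr2. The groups did not overlap for 23 of the 66, where this held for 16.8% of all genes. The median log2 fold change was 0.0020 beside -0.0035 for all genes, with 33 of the 66 on each side of 0. TNF-α replicate 1 was the highest TNF-α library for 41 of the 66, beside 37.9% of all genes. Without TNF-α replicate 1, 19 of the listed genes passed the test, beside 6.94% of all genes, and 6 of the 7 were among them, Mmp13 being the exception. Leaving out other libraries lowered the number. It was 5 without TNF-α replicate 3 (0.306% of all genes), 1 without TNF-α+NFL replicate 1 (0.0373%), 2 without TNF-α replicate 2 (0.127%), 2 without TNF-α+NFL replicate 2 (0.0821%) and 3 without TNF-α+NFL replicate 3 (0.194%).

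The receptors are integrins, which join fibronectin to the cytoskeleton. Of 10 listed, 7 were tested and 1, Itgb1, passed edgeR's test, beside 0.611% of all genes. Itgb1, the β1 chain shared by most fibronectin receptors, had CPM values of 2409, 2548 and 2551 in the TNF-α group and 2929.8, 2854 and 2869.9 in the TNF-α+NFL group. All 3 TNF-α+NFL libraries lay above the TNF-α libraries, a difference of 0.20 on the log2 scale (SE 0.037, adjusted p = 0.0279 in edgeR's quasi-likelihood test). Its α5 partner Itga5, which completes the classical receptor, had overlapping groups and a log2 fold change of -0.07 (SE 0.044). Itgav, the αv chain, was likewise at 0.02 (SE 0.048). Itga8, the α8 chain, had a log2 fold change of 0.28 (SE 0.060, adjusted p = 0.0599, edgeR). Its groups did not overlap, as for 16.8% of all genes. It passed in the DESeq2 Wald test, without TNF-α replicate 1 and with the length trend removed. By TPM, Itgb1 averaged 1441, Itgav 207 and Itga5 144, so that the TPM of Fn1 was 4.37 to 6.63 times that of all 10 receptor chains together.

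The 4 syndecans, proteoglycans that bind the heparin-binding domain of fibronectin beside the integrins, did not overlap between the groups, as for 16.8% of all genes, but 0 of 4 passed edgeR's test at an adjusted p under 0.05. At an unadjusted p under 0.05 it was 3 of 4, beside 1472 of the 13250 genes, and DESeq2 and limma-voom gave 0 after adjustment. Sdc4, the member found in focal adhesions, stood at a CPM of 179, 183 and 176 in the TNF-α group and 195, 195 and 207 in the other group. The log2 fold change was 0.15 (SE 0.040, adjusted p = 0.141 in edgeR). Sdc2 and Sdc3 had log2 fold changes of 0.11 and 0.13, and Sdc1 of -0.04. With TNF-α replicate 1 left out, Sdc3 and Sdc4 passed the test, and Sdc4 also with the length trend removed.

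Among 17 proteins that link integrins to actin or pull on the fibrils during assembly, 2 passed edgeR's test. Both were higher in the TNF-α+NFL group, as were 0.408% of all genes. Rock2, a kinase of actomyosin contraction, had CPM values of 380.5, 355 and 363 in the TNF-α group and 446, 459 and 439 in the TNF-α+NFL group. It was higher by 0.29 on the log2 scale (SE 0.040, adjusted p = 0.00556, edgeR). Vcl, vinculin of focal adhesions, stood at 712, 691 and 674 against 789, 799.9 and 804, with no overlap and a log2 fold change of 0.20 (SE 0.036, adjusted p = 0.0239, edgeR). The 3 members with the highest TPM were Rhoa (a GTPase upstream of the Rock kinases, mean TPM 802), Ilk (integrin-linked kinase, 309.8) and Parva (parvin α, which binds Ilk, 288). Their log2 fold changes were -0.02, -0.02 and 0.03, with overlapping groups. Tns1 (tensin 1), with a log2 fold change of 0.21 (SE 0.066, adjusted p = 0.249, edgeR), passed in the DESeq2 Wald test and with the length trend removed. Without TNF-α replicate 1, Tns1, Rock1, Tln1 and Tns3 passed as well, where 6.94% of all genes did.

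Of 15 matrix partners and crosslinkers 14 were tested, and Tnc alone passed edgeR's test, beside 0.611% of all genes. The DESeq2 Wald test also called Thbs1. Tnc encodes tenascin C, a matrix protein that binds fibronectin and modulates adhesion to it. Its CPM was 1865, 1773 and 1693 in the TNF-α group and 2325, 2333 and 2382 in the TNF-α+NFL group, with a wide gap between the groups. The log2 fold change of 0.40 (SE 0.041, adjusted p = 0.000906, edgeR) was the highest of the 66 genes. Thbs1 also had no overlap, at 6658, 5861 and 5809.5 against 6766, 7363 and 6715, but its log2 fold change of 0.19 (SE 0.057, adjusted p = 0.223, edgeR) did not pass there and did without TNF-α replicate 1. Lox and Col1a1 had log2 fold changes of 0.0050 and 0.07 and overlapping groups, and Col1a1 passed without TNF-α replicate 1. TNF-α replicate 1 was the highest TNF-α library for 12 of the 14, beside 37.9% of all genes. Thbs1 and Col1a1 were among the 12, Col1a1 at a CPM of 4133 beside 3419 and 3523. Vtn (vitronectin) was at a TPM of 0 in every library.

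Of the 8 tested splicing factors that act on fibronectin exons, 0 passed edgeR's test after adjustment and 1, Srsf5, had an unadjusted p under 0.05, beside 1472 of the 13250 genes, and DESeq2 and limma-voom also gave 0 after adjustment. The 3 with the highest TPM were Hnrnpa1 (428), Ptbp1 (274) and Srsf5 (227), with log2 fold changes of -0.03, -0.03 and -0.08. The groups overlapped for Hnrnpa1 and Ptbp1 and not for Srsf5.

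All 10 tested proteases that can cut fibronectin had log2 fold changes below 0, as had 6864 of the 13249 genes tested besides Fn1. Their median was -0.12 beside -0.0035 for all genes, and 2 were lower past the test, as were 0.204% of all genes. Plau (urokinase, which activates plasminogen) had CPM values of 101, 100.3 and 96.9 in the TNF-α group and 80.6, 80.9 and 75.2 in the TNF-α+NFL group, at a log2 fold change of -0.33 (SE 0.045, adjusted p = 0.00556, edgeR). Mmp13 (collagenase 3) stood at 341, 355 and 313 against 279.7, 259 and 277, at a log2 fold change of -0.31 (SE 0.050, adjusted p = 0.0167, edgeR). Both separated the groups fully. The 3 proteases with the highest TPM were Mmp3 (8029), Ctsb (cathepsin B, 2799.6) and Htra1 (a secreted serine protease, 1330.3), and their log2 fold changes of -0.14, -0.05 and -0.10 did not pass. The groups did not overlap for Mmp3 and Htra1, and Htra1 passed without TNF-α replicate 1. The DESeq2 Wald test also called Mmp10 (stromelysin 2).

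Of 9 genes through which chondrocytes respond to fibronectin fragments 8 were tested, and 2 passed edgeR's test. Both were lower in the TNF-α+NFL group, as were 0.204% of all genes. One was Mmp13, given above. The other was Tlr2, an innate immune receptor, at a CPM of 319, 302 and 329 in the TNF-α group and 262, 262 and 264 in the TNF-α+NFL group, with -0.27 as log2 fold change (SE 0.040, adjusted p = 0.00833, edgeR). The groups were far apart beside the spread within either. Adamts5, at the head of the genes parallel to Fn1, is also in this list and did not pass.

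The calls differed in how far they rested on single libraries. In the 6 fits that each left out 1 library, Tnc passed in 6, Plau in 4, Rock2 and Tlr2 in 3 each. Itgb1 and Vcl passed only without TNF-α replicate 1, and Mmp13 only without TNF-α replicate 3. The exact permutation p for a single gene with no overlap is 0.10, the smallest that 3 libraries against 3 allow (two-sided).

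**Figure D5:**
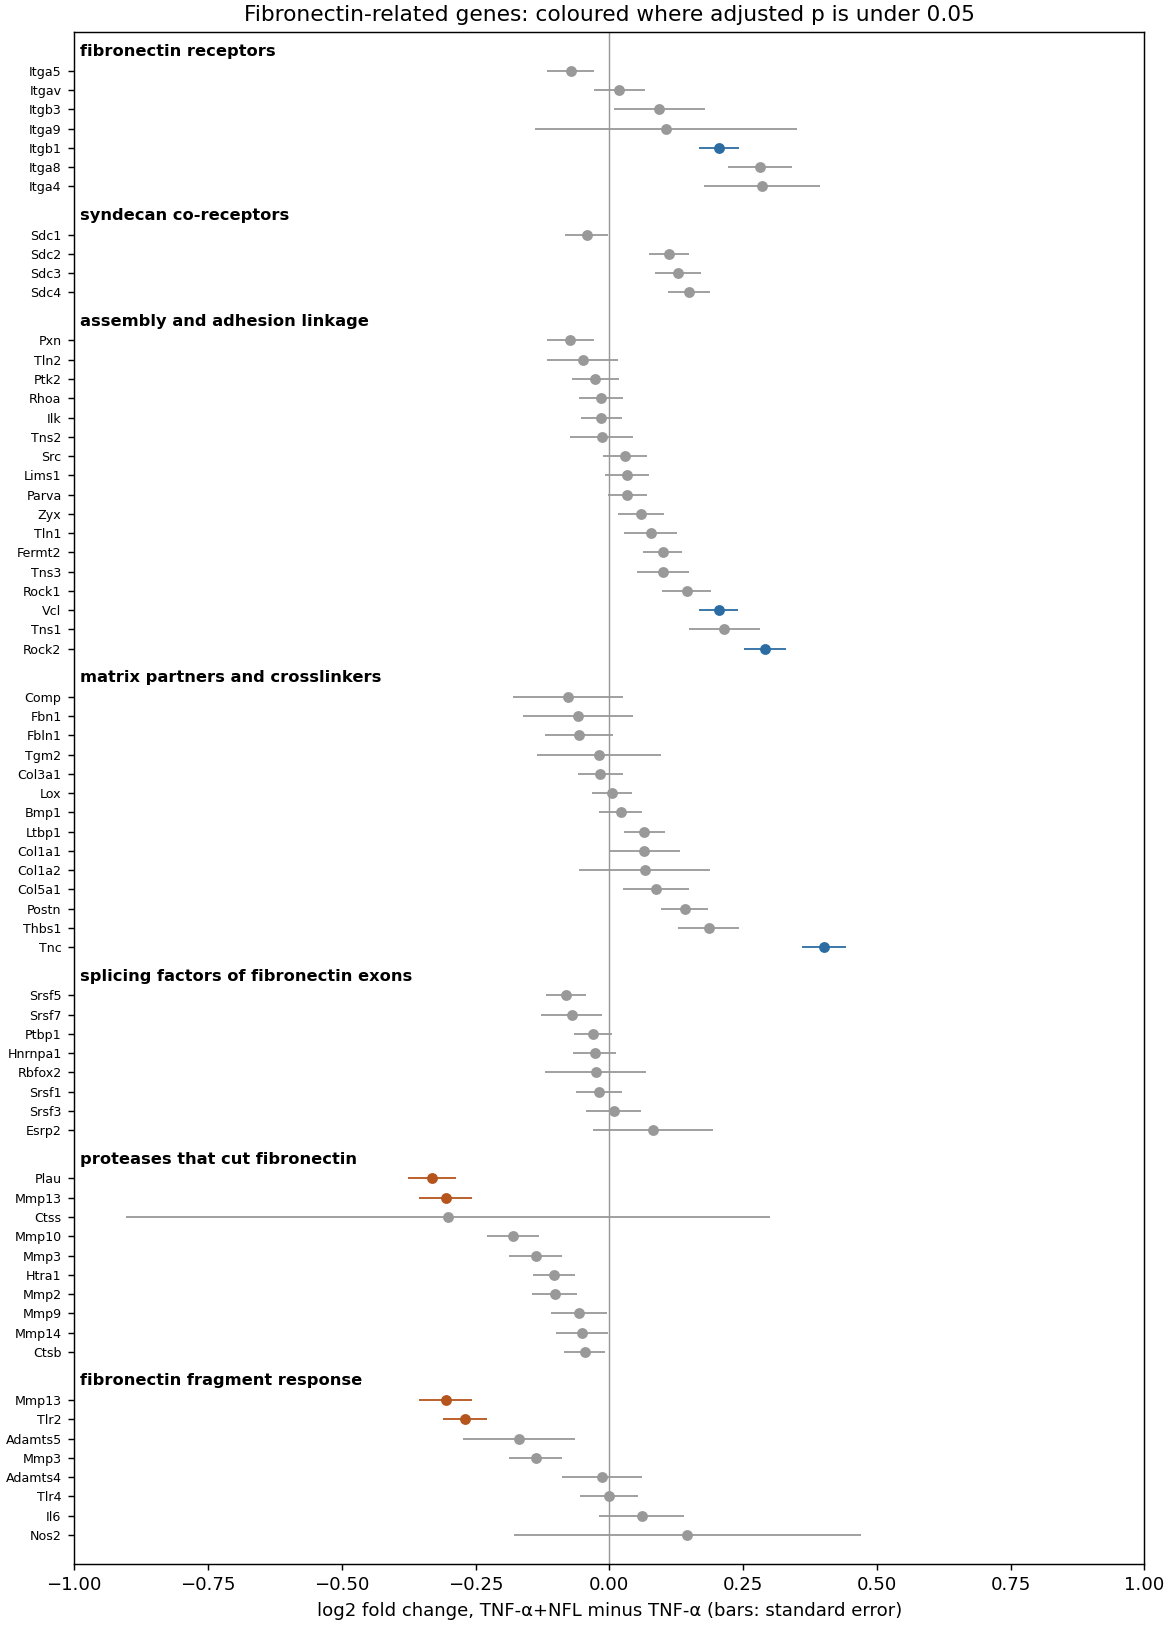
Log2 fold change (TNF-α+NFL minus TNF-α, horizontal) with its standard error for each tested gene of the 7 lists of fibronectin-related genes, grouped by role; genes with an adjusted p under 0.05 are blue where higher and orange where lower, and Mmp3 and Mmp13 stand in 2 lists. All proteases lie left of 0, and Tnc lies farthest to the right, at 0.40.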

How the data were processed

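RNA was purified with oligo(dT) and sequenced as single-end reads of 50 bases, per the labels. The authors deposited, per gene and library, estimated counts, which are not normalized, FPKM values, scaled to length and mapped reads, and TPM values, scaled to length and to a common sum. The submitters' processing notes list HISAT2 2.0.4, Bowtie2 2.2.5, RSEM 1.2.12 and the build Rnor_6.0. Values of genes with a close paralog or pseudogene are uncertain, and 50-base reads resolve splice forms poorly. No coordinates or sequences are given.

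Shares and ranks used all 18420 genes. Estimated counts (27.3% to 28.0% of the values in a library were fractional) were rounded and tested in R 4.3.3 with edgeR 4.0.16 (filterByExpr, TMM, robust quasi-likelihood test, two-sided, p-values adjusted by the Benjamini-Hochberg method over 13250 genes). Standard errors (SE) were the log2 fold change divided by the root of F. Effective lengths were derived from the estimated counts and FPKM. Alternatives used DESeq2 1.42.0, limma 3.58.1, other scalings and filters, a replicate block and each library left out. Those with the length trend removed, and those for the spread and for the constant ratio without a library, were added after seeing the data. Genes were matched by Entrez identifier, and 17068 were in the RefSeq table.

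Fn1, the lists and the tests were chosen with earlier results of these data known. Named genes are Fn1, the 10 with the highest mean share of counts, the 5 with the most constant ratio to Fn1, and of each list those past an adjusted p of 0.05, the 3 with the highest mean TPM and markers at 0. Mgp, Ftl1, Tmsb10, Mt2A, Lrp1, the genes that left or joined the called genes and other named marker or list members were chosen after their values were seen. One gene that this rule names is not reported here. Counting intervals cover counting error only.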

Additional observations from a re-analysis of the deposited data

How the results depend on the processing

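The mean share of Fn1 was 0.942% and 0.885% (TNF-α and TNF-α+NFL) of the TPM or FPKM sum, and its median rank by counts was 1 in both groups. Leaving out 1 library, the mean shares ran from 3.48% to 4.004% and from 3.47% to 3.55%, the median TPM ranks from 4.5 to 7 and from 5 to 5.5, the CV from 2.78% to 19.96% and from 1.63% to 3.28%, and the log2 fold change of Fn1 from -0.19 to 0.019. With the length trend removed the CV was 8.73% and 1.201%.

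In place of 54 higher and 27 lower genes, there were 84 and 48 without a filter on low counts, 95 and 53 with the DESeq2 Wald test (11 fibronectin-related genes), 3 and 3 with limma on log2(FPKM + 1) (1 related), 7 and 6 on log2(FPKM + 0.1) (3 related), and 142 and 89 with the length trend removed (10 related). Leaving out 1 library, they ran from 5 (without TNF-α+NFL replicate 1) to 460 (without TNF-α replicate 1) and from 0 to 470 for the same libraries, with 1 to 19 related genes and 1026 to 2717 genes under 0.05 before adjustment (1472 with all libraries). The cause was not tested. Of the 5 genes with the most constant ratio to Fn1, 0 (without TNF-α replicate 1) to 5 stayed among the leading 5, with 3 without TNF-α+NFL replicate 2. No direction of a called gene was reversed.

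The groups share replicate numbers, but same-numbered libraries did not deviate together (correlations 0.0121, -0.0677 and 0.0991). These values gave no sign of a pairing. They cannot exclude one, with 3 libraries a group of which TNF-α replicate 1 stands apart. With the replicate number as a block 25 genes were higher and 9 lower, 5 of them fibronectin-related (Plau, Rock2, Tlr2 and Tnc as before, and Itga8 in addition), and the log2 fold change of Fn1 was -0.11. Itgb1, Vcl and Mmp13 were then not past the threshold.

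Depth does not limit the values of Fn1. With 3 libraries a group, of which 1 stands apart, small changes of listed genes cannot be told from the spread.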
